A study of Mus musculus with 6 samples.

Results

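Collagen genes were followed across the cell classes of mouse brain tissue bearing tumors or lesions driven by Foxr2, with the nuclei of the tumor glia set against vascular nuclei and against host glia. The members are all genes whose symbol is Col, a number, a, a number. This gave 44 of the 32285 genes of the deposited matrices, which also list 13 vector features. The rule by symbol used no measured value, but the members were chosen with earlier results of these data known. RNA and open chromatin (ATAC-seq) had been read from the same nuclei with the 10x Multiome assay, in 3 libraries of frozen tissue from C57BL/6J mice, whose age is not given in the sources used here. All are labelled brain tumor, although the study describes the growths under Foxr2 alone as lesions that did not proliferate. In every animal, plasmids were electroporated into the ganglionic eminence of the embryo in utero, where the piggyBac transposase inserted a CAG-driven, tagged FOXR2 and, as a tracer, a CAG-driven Akaluc luciferase, each followed by GFP. The library Foxr2 p53LOF replicate 1 also carried loss of function of p53, made with a Cas9 plasmid bearing a guide RNA to Trp53, while the libraries Foxr2 alone replicates 1 and 2 carried Foxr2 overexpression without it. None of the libraries came from a brain without Foxr2, so every class below, host classes included, sat in a brain with a Foxr2 lesion. RNA and peak counts were analysed for replicate 1 of both genotypes, and Foxr2 alone replicate 2 entered only through its cell barcodes and peak list, its counts being not analysed here.

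Collagens are secreted or membrane proteins in which chains wind into a triple helix. Fibrillar collagens such as types I and III build the fibers of connective tissue, fibril-associated collagens sit on those fibers, and type IV collagens form the sheet-like network of basement membranes. In the brain, the parenchyma holds little fibrillar collagen, and the basement membranes of vessels and meninges are laid down mainly by endothelial cells, mural cells and fibroblasts. The genes of type IV collagen lie in head-to-head pairs, Col4a1 with Col4a2, Col4a3 with Col4a4 and Col4a5 with Col4a6, each pair sharing the stretch of DNA between its starts.

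The libraries held 96929539 UMIs (unique molecular identifiers, the count of RNA molecules) for Foxr2 p53LOF and 59719847 for Foxr2 alone, and 8359 and 8316 nuclei were kept after the filters and the removal of doublets. Of their cell barcodes, 140 were shared between these libraries, 34 between Foxr2 p53LOF and Foxr2 alone replicate 2, and 19 between both replicates of Foxr2 alone. In Foxr2 p53LOF, tumor glia were the clusters with the markers of oligodendrocyte precursor cells (OPC), committed precursors or astrocytes in which nuclei with an ATAC count on the integrated Akaluc and GFP sequence were at least 3 times as frequent as among immune-like nuclei. They held 2016 nuclei, of which 29.7% (exact binomial 95% interval 27.7 to 31.8) had such a count, against 2.77% of immune-like, 2.63% of vascular and 0.860% of host glial nuclei. Host glia of the same library were 1627 nuclei, of which 1527 were oligodendrocyte-like, 95 OPC-like and 5 astrocyte-like. The vascular class was small, with 76 nuclei, namely 31 endothelial-like, 9 mural-like and 36 fibroblast-like. Collagens and the genes of the collagen pathway had been left out of the clustering. A group of 132 astrocyte-like nuclei with an intermediate vector share (7.58%) and 317 unnamed nuclei entered none of these classes. The immune-like reference included clusters 31 and 34, in which 8.07% and 19.0% of nuclei had a vector ATAC count. The intermediate group depended on the settings. At a minimum of 1000 genes and fragments and with doublets kept it was absent, and 126 and 139 nuclei were host astrocyte-like, in place of 5. At clustering resolution 1 it was absent too, and tumor glia held 2197 nuclei. In Foxr2 alone 1587 nuclei stayed unnamed, 1563 of them in cluster 2, in which all 10 oligodendrocyte markers were raised but none stood among its 10 leading genes by fold. The Foxr2 alone library had no peak on the vector sequence, so its glia could not be split into tumor and host.

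The class names were held up against their markers. The 12 endothelial markers summed to 12501 UMIs per 1000000 UMIs of the class (CPM) in endothelial-like nuclei and to 59.1 in tumor glia, where none was at 0 and 1 reached 10 CPM. The 12 fibroblast markers summed to 8867 CPM in fibroblast-like nuclei and to 144 in tumor glia, where Lum and Slc22a6 were at 0 and 5 reached 10 CPM. Astrocyte markers were also read in the vascular class, where they summed to 3025 CPM, and in fibroblast-like nuclei, to 6217, against 1788 in tumor glia. Whether this is RNA of other cells was not tested. The transcript of the GFP carried by the vectors was read at 608 CPM in tumor glia, 259 in vascular nuclei, 190 in host glia, 275 in immune-like nuclei, 806 in the astrocyte-like nuclei with an intermediate vector share and 1546 in unnamed nuclei, so that vector RNA was counted in every class of this library, and what free RNA adds to each class was not tested.

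All 44 collagens had at least 1 UMI, and 39 reached 10 CPM in some class of either library. The 5 that did not were Col2a1, Col6a4, Col6a5, Col10a1 and Col17a1, with highest levels of 9.08, 3.15, 2.16, 5.27 and 2.16 CPM. Another 9 reached 10 CPM only in classes so shallow that 3 UMIs exceed that level. Tumor glia had 15 collagens at 10 CPM or more, vascular nuclei 27, host glia 9 and neuron-like nuclei 11. These counts differ in depth, since 3 UMIs amount to 11.1 CPM in vascular nuclei and to 0.148 CPM in tumor glia. The sum over all collagens was 1978 CPM in tumor glia (exact Poisson 95% interval 1959 to 1998), 2996 in vascular nuclei (2793 to 3210), 981 in host OPC-like nuclei (877 to 1093) and 220 in oligodendrocyte-like nuclei (206 to 235). Type IV genes made up 1008 of the 1978 CPM of tumor glia and 1439 of the 2996 CPM of vascular nuclei. Counts of 1 library per genotype were analysed, so no test between animals could be run, and all intervals cover counting error only. Levels were compared for the same gene between classes. Counts were not scaled to transcript length, so sums over genes are shares of UMIs, and values of different genes set side by side do not rank their transcripts.

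Type IV collagens differed in where they were read. Col4a5 and Col4a6 were high in tumor glia and also in fibroblast-like and mural-like nuclei, whereas Col4a1 and Col4a2, the chains of the common basement membrane network, were high in the vascular classes and low in tumor glia. Col4a6 was read at 570 CPM in tumor glia (11539 UMIs), 409 in fibroblast-like (38 UMIs), 482 in mural-like (9 UMIs) and 31.5 in endothelial-like nuclei (5 UMIs). In host OPC-like nuclei it stood at 12.1 CPM (4 UMIs), in oligodendrocyte-like nuclei at 13.5 and in neuron-like nuclei at 6.39. Tumor glia, fibroblast-like and mural-like nuclei therefore formed the upper group, and the intervals of the mural-like (220 to 914) and tumor glia (559 to 580) levels overlapped. Col4a5 followed the same order apart from its top, with 393 CPM in tumor glia (7949 UMIs), 528 in fibroblast-like nuclei (49 UMIs, interval 391 to 698), 321 in mural-like nuclei, 107 in endothelial-like nuclei, 12.1 in host OPC-like nuclei, 13.7 in oligodendrocyte-like nuclei and 11.1 in neuron-like nuclei. The interval of tumor glia (384 to 401) overlapped with that of fibroblast-like nuclei.

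**Figure D1:**
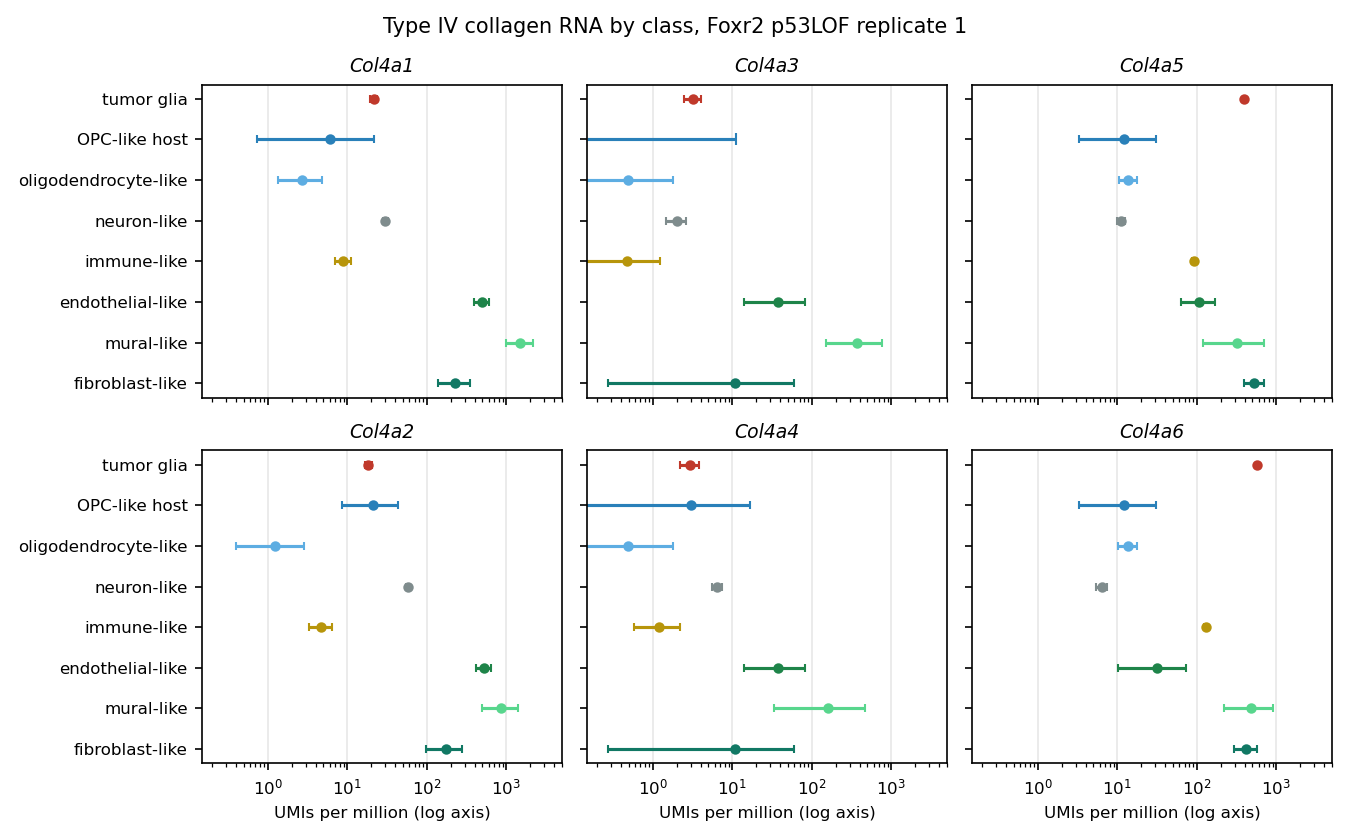
Type IV collagen RNA by cell class in Foxr2 p53LOF replicate 1, as CPM (log axis) with exact Poisson 95% intervals; a bar with no point that ends in a tick is a class with 0 UMIs and shows the upper limit. Col4a5 and Col4a6 are high in tumor glia (393 and 570 CPM) and also in fibroblast-like and mural-like nuclei, and low in host glia. Col4a1 and Col4a2 are high in endothelial-like and mural-like nuclei (491 and 516, and 1498 and 856 CPM) and at 21.4 and 18.3 CPM in tumor glia.

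Col4a1 was read at 1498 CPM in mural-like, 491 in endothelial-like and 226 in fibroblast-like nuclei, against 21.4 in tumor glia. Col4a2, its partner chain in the same trimer, stood at 856, 516 and 172 CPM in these classes and at 18.3 CPM in tumor glia. Both were therefore about as far below the vascular class as each other, with log2 ratios of tumor glia to vascular nuclei of -4.46 (-4.75 to -4.16) and -4.52 (-4.83 to -4.21). Col4a3 and Col4a4, which with Col4a5 build the network of the kidney filter, had their highest levels in mural-like nuclei, at 375 CPM (7 of 14 vascular UMIs) and 161 CPM (3 of 10 vascular UMIs, the floor of that class), and stood at 3.16 and 2.91 CPM in tumor glia. Across 38 clusters of at least 50 nuclei in either library, vascular nuclei left out, the log levels of Col4a5 and Col4a6 had Pearson's r = 0.961 and Spearman's rho = 0.927, those of Col4a1 and Col4a2 had r = 0.823 and rho = 0.822, and those of Col4a3 and Col4a4 had r = 0.445 and rho = 0.261. Between pairs, Col4a6 and Col4a1 had r = 0.345, while Col4a6 had r = 0.795 with Col18a1 and 0.736 with Col11a1, which lie in no pair with it. These coefficients are descriptions, as the clusters share libraries, free RNA and depth.

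The same split was seen nucleus by nucleus. With every nucleus thinned to 1000 UMIs, Col4a6 was found in 32.4% of tumor glia (64.7% before thinning), 41.2% of fibroblast-like nuclei (58.3%), 1.05% of host OPC-like nuclei (2.11%) and 1.19% of oligodendrocyte-like nuclei (2.95%). Immune-like nuclei, a class that is not known for type IV collagen, gave 4.08% (9.69%), and 1.51% (4.26%) without clusters 31 and 34, which carried vector chromatin and are given next. The shares of both host glial classes lay below either value as point values, without intervals. The host OPC-like class held only 95 nuclei, so its share is not set apart from this background. Median depths were 8321.5 UMIs in tumor glia, 3348 in host OPC-like, 2455 in oligodendrocyte-like and 2805 in immune-like nuclei. Col4a1 was found in 31.1% of thinned vascular nuclei (46.1% before thinning) and in 1.54% of thinned tumor glia (14.3%), with 0.575% (2.72%) among immune-like nuclei. Within tumor glia, 88.3% of the nuclei with a UMI of Col4a5 also had 1 of Col4a6, against 30.6% of the nuclei without, and after thinning these shares were 59.7% and 24.1%.

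Clusters 31 and 34, which carried vector chromatin, held 85.2% of the Col4a6 and 79.3% of the Col4a5 UMIs of immune-like nuclei. Whether they hold doublets that Scrublet left was not tested. Immune-like cluster 34, in which 19.0% of nuclei had a vector ATAC count, held 393 CPM of Col4a5 and 615 of Col4a6, and cluster 31, with 8.07%, held 132 and 177. The remaining immune-like nuclei, 1690 in all, held 25.8 and 26.0 CPM and a GFP level of 218 CPM. Their 5 clusters of at least 50 nuclei ranged from 9.52 to 78.8 and from 9.13 to 111 CPM, and cluster 12, with 2 nuclei here, had no UMI of either gene.

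Against vascular nuclei, more collagens were lower than higher in tumor glia. A gene was called when it reached 10 CPM in 1 class of the pair, differed at least 2-fold and had a counting interval that left out equality. Of the 44 collagens, 30 reached that level, and 5 were called higher and 19 lower in tumor glia (16.7% and 63.3% of those compared), where the same rule called 10.4% and 16.4% of the 11519 genes compared higher and lower. The median log2 ratio was -2.11 over these collagens and -0.03 over all genes. The genes entered by being abundant in either class, so the counts describe them and not the 14 collagens below the minimum. Col9a3 and Col20a1, called higher, passed through tumor glia alone, and of the lower ones all but Col4a1, Col4a2, Col23a1, Col25a1 and Col27a1 passed through vascular nuclei alone. The division was by level in CPM, and tumor glia had more UMIs per nucleus (medians of 8321.5 and 2412.5). Mean UMIs per nucleus add 1.5 to every log2 ratio, by which 9 collagens were called higher and 11 lower, beside 65.1% and 6.83% of all genes. Against endothelial-like nuclei alone, 5 of 24 collagens were higher and 10 lower, beside 8.17% and 14.5% of 11474 genes.

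**Figure D2:**
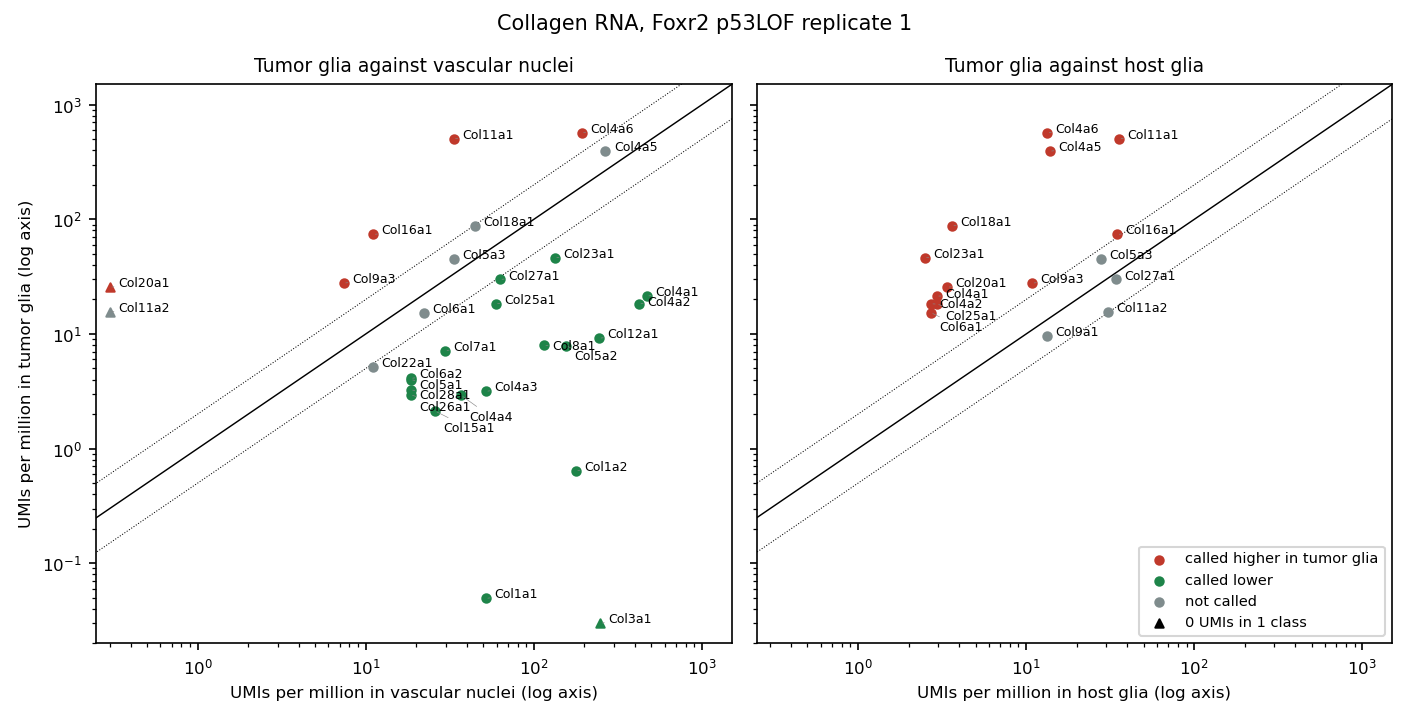
Collagen RNA in tumor glia (vertical, CPM, log axis) against vascular nuclei (left) and host glia (right) of Foxr2 p53LOF replicate 1, for collagens at 10 CPM or more in 1 class of the pair; the solid line marks equal levels, dotted lines 2-fold differences, and triangles genes with 0 UMIs in 1 class, drawn at the edge. In the left panel 19 collagens lie low in tumor glia and 5 high, and in the right panel 12 lie high and 0 low.

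The chains of type I and type III collagen were at or near 0 in tumor glia, while fibrillar collagens as a family summed to 612 CPM there and 784 in vascular nuclei. Col3a1, the type III chain of vessel walls, had 67 UMIs in vascular nuclei (248 CPM) and 0 among 20250982 UMIs of tumor glia, which is at least 1673-fold lower when 3 counts are taken as the floor of tumor glia. Col1a1 and Col1a2, both chains of type I collagen, stood at 51.8 and 178 CPM in vascular nuclei and at 0.0494 (1 UMI) and 0.642 CPM (13 UMIs) in tumor glia, log2 ratios of -10.03 (-15.44 to -7.32) and -8.11 (-9.12 to -7.20). These genes were carried by fibroblast-like nuclei, with 636 CPM of Col3a1, 151 of Col1a1 and 442 of Col1a2. Col5a2 and Col5a1, type V chains that set the width of type I fibrils, were also lower, at log2 ratios of -4.31 and -2.21, with Col5a2 at 7.85 CPM in tumor glia. Col12a1, a fibril-associated collagen, was read at 244 CPM in vascular nuclei and 9.18 in tumor glia (log2 -4.73), and Col8a1, a network collagen of vessel and corneal basement membranes, at 115 and 7.95 CPM (log2 -3.85).

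The other collagens called lower were called on few vascular UMIs. They were Col4a3 (log2 -4.03, 14 vascular UMIs), Col4a4 (-3.67, 10 UMIs), the multiplexin Col15a1 (-3.61, 7 UMIs), Col26a1 (-2.64, 5 UMIs), Col28a1 (3.26 against 18.5 CPM, 5 UMIs), the type VI chain Col6a2 (-2.17, 5 UMIs), the anchoring fibril chain Col7a1 (-2.05, 8 UMIs), the transmembrane collagens Col25a1 (-1.69, 16 UMIs) and Col23a1 (-1.53, 36 UMIs), and Col27a1 (-1.07, 17 UMIs). The call of Col27a1 was lost when doublets were kept, at a log2 ratio of 0.26. The shift of 1.5 turned the ratios of Col27a1 and of Col22a1 (-1.11, not called) to 0.42 and 0.39.

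Col11a1, the type XI chain that starts and thins collagen fibrils in cartilage, headed the collagens called higher in tumor glia than in vascular nuclei, with 506 CPM (10237 UMIs) against 33.3 (9 UMIs), a log2 ratio of 3.92 (3.00 to 5.05). Col16a1, a fibril-associated collagen, stood at 73.8 against 11.1 CPM (3 UMIs, log2 2.73, 1.18 to 5.01), and Col9a3, a chain of the cartilage type IX collagen, at 27.8 against 7.40 CPM (2 UMIs, log2 1.91, 0.05 to 4.96). Col20a1, also fibril-associated, had 25.6 CPM in tumor glia and 0 UMIs in vascular nuclei, at least 2.31-fold higher at a floor of 3 counts. Col4a6 was 2.96-fold higher (log2 1.57, 1.17 to 1.99). Col4a5 missed the 2-fold limit (log2 0.56, 0.23 to 0.92), as did Col18a1, the precursor of endostatin (0.98, 0.17 to 1.94). Col5a3, Col6a1, Col11a2 and Col22a1 were also compared and not called. The vascular class is a mixture, and its fibroblast-like nuclei alone held 409 CPM of Col4a6 (290 to 562) and 528 CPM of Col4a5 (391 to 698), intervals that overlapped those of tumor glia (559 to 580 and 384 to 401).

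Against host glia of the same library, collagen RNA was higher in tumor glia. Of 16 collagens compared, 12 were called higher and 0 lower (75.0% of those compared higher), where the rule called 26.1% of 10433 genes higher and 10.7% lower. The median log2 ratio was 2.70 over these collagens and 0.37 over all genes. Col4a1, Col4a2, Col6a1, Col18a1, Col20a1, Col23a1 and Col25a1 passed the minimum through tumor glia alone, so the count describes the genes compared and not the family. Col4a6 led with 570 against 13.3 CPM, a 42.7-fold difference (33.1 to 56.2), followed by Col4a5 with 393 against 13.8 CPM, 28.5-fold (22.1 to 37.3). Col18a1 stood at 87.6 against 3.62 CPM (24.2-fold, 14.9 to 42.5) and Col23a1 at 46.1 against 2.49 CPM (18.5-fold, 10.3 to 37.3). Col11a1 stood at 506 against 35.7 CPM, 14.2-fold (12.1 to 16.7). Within host glia, Col11a1 stood at 206 CPM in the OPC-like and 22.1 CPM in the oligodendrocyte-like nuclei, which made up most of the class.

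The other collagens called higher than in host glia were Col20a1 (log2 2.92), Col4a1 (2.86), Col4a2 (2.76), Col25a1 (2.64), the type VI chain Col6a1 (15.4 against 2.71 CPM), Col9a3 (1.36) and Col16a1 (1.08). Col4a1 and Col4a2 therefore stood between host glia (2.94 and 2.71 CPM) and vascular nuclei (470 and 422 CPM) in tumor glia. Not called were Col5a3 (log2 0.70), Col27a1 (-0.19), Col9a1 (-0.47) and Col11a2 (-0.97). Host glia were mostly oligodendrocyte-like, the most mature of the glial classes here, so tumor glia were also set against the 95 host OPC-like nuclei alone.

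Against host OPC-like nuclei, collagens were called in both directions. Of 21 collagens compared, 6 were called higher and 8 lower in tumor glia (28.6% and 38.1%), against 17.2% and 12.3% of 10765 genes, and the median log2 ratio was 0.20 against 0.33 over all genes. Mean UMIs per nucleus add 1.53 to every log2 ratio here, by which 12 collagens were called higher and 6 lower, beside 77.2% and 4.23% of all genes. Col1a2, Col6a6, Col9a1, Col9a2, Col24a1 and Col26a1, all called lower, passed the minimum through host OPC-like nuclei alone, and Col18a1, Col23a1 and Col25a1, called higher, through tumor glia alone, so the counts describe the genes compared. Col4a6 (570 against 12.1 CPM, 47.1-fold, 18.4 to 173) and Col4a5 (393 against 12.1 CPM, 32.4-fold, 12.7 to 119) were the furthest apart. Col18a1 followed with 87.6 against 3.03 CPM (1 UMI in host OPC-like nuclei, log2 4.85, 2.37 to 10.16), then Col25a1 (log2 2.60, also on 1 UMI) and Col23a1 (0 UMIs in host OPC-like nuclei, at least 5.07-fold higher). The difference in Col11a1 was smaller here than against all host glia, with 506 against 206 CPM (log2 1.30, 0.95 to 1.66). In thinned nuclei, Col11a1 was found in 24.0% of tumor glia and 18.9% of host OPC-like nuclei, whose interval of 11.6 to 28.3 holds both, with 3.87% of immune-like nuclei as background (2.71% without clusters 31 and 34). Before thinning these shares were 61.1%, 43.2% and 11.2%.

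The collagens called lower than in host OPC-like nuclei were a different group. Col27a1, a fibrillar collagen of cartilage, stood at 29.9 CPM in tumor glia and 206 in host OPC-like nuclei (68 UMIs, log2 -2.78, -3.15 to -2.40), Col11a2 at 15.6 against 115 CPM (38 UMIs, log2 -2.89) and the type IX chain Col9a1 at 9.63 against 60.5 CPM (20 UMIs, log2 -2.65). Each of these 3 genes had 20 UMIs or more in host OPC-like nuclei. The remaining 5, Col1a2 (log2 -4.82), Col6a6 (-4.48), Col24a1 (-3.80), Col26a1 (-2.62) and Col9a2 (2.67 against 15.1 CPM), rested on 4 to 6 UMIs in host OPC-like nuclei. The 7 not called were Col4a1, Col4a2, Col5a3, Col6a1, Col9a3, Col16a1 and Col20a1.

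Tumor glia were not uniform. The 6 clusters that formed them were OPC-like (clusters 4, 28 and 33), committed precursor-like (21), astrocyte-like (6) and cluster 29, and their vector shares ran from 15.8% to 34.6%. Cluster 29 had all 10 astrocyte markers raised, but none stood among its 10 leading genes by fold, which included Col4a6, Adamts14, Hmga2, Has2, Met, Fn1 and the endothelial marker Flt1, so it is given by number. Clusters 4, 6, 28 and 33 had no marker of their class among their 10 leading genes either. In astrocyte-like cluster 6, astrocyte and OPC markers were raised alike (median log2 4.15 and 4.14). In OPC-like cluster 4, all 10 markers of OPC and all 10 of committed precursors were raised, at similar medians (3.83 and 3.64). Col4a6 stood at 1485 CPM in cluster 29, 814 in astrocyte-like cluster 6, at 460, 450 and 315 in OPC-like clusters 33, 4 and 28, and at 104 in committed precursor-like cluster 21. Col4a5 had 1123, 568, 245, 305, 158 and 71.2 CPM in the same clusters. Each cluster therefore held more of both genes than host OPC-like nuclei (12.1 CPM), the lowest being the committed precursor-like cluster. Without cluster 29, 6 collagens were called higher and 19 lower against vascular nuclei, and 12 higher and 0 lower against host glia, an alternative chosen after seeing the data. The share of all genes called without cluster 29 was not computed.

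**Figure D3:**
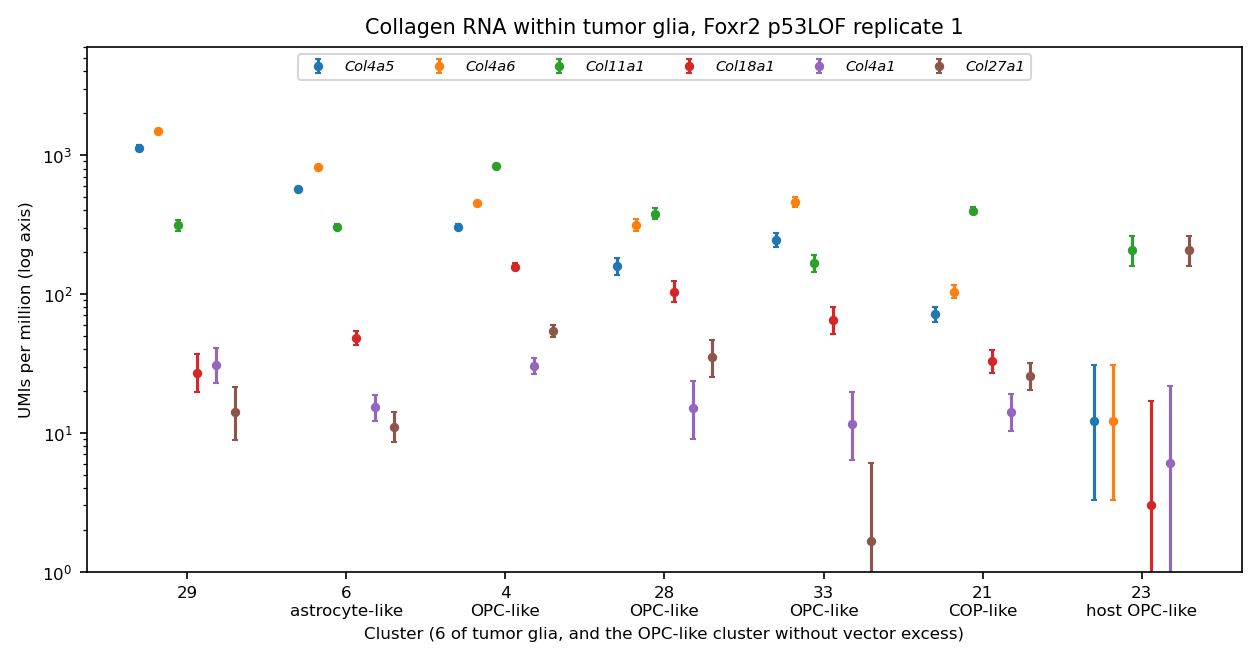
Collagen RNA in each tumor glia cluster and in host OPC-like nuclei (cluster 23) of Foxr2 p53LOF replicate 1, as CPM (log axis) with exact Poisson 95% intervals. Col4a5 and Col4a6 peak in cluster 29 (1123 and 1485 CPM), Col11a1 and Col18a1 in OPC-like cluster 4 (835 and 158 CPM), and Col27a1 in host OPC-like nuclei (206 CPM).

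Other collagens had their highest level in other clusters. Col11a1 peaked in OPC-like cluster 4 at 835 CPM and ranged from 167 to 398 in the remaining 5, so that cluster 33 (167, interval 145 to 192) and host OPC-like nuclei (206, 160 to 261) overlapped. Col18a1 also peaked in cluster 4, at 158 CPM, and was lowest in cluster 29, at 27.1. Cluster 29, highest for Col4a5 and Col4a6, was also highest for Col5a3 (137 CPM, against 3.18 to 62.2 in the others), Col5a2 (52.9 CPM, against 0.308 to 5.82) and Col12a1 (44.6 CPM, against 0.794 to 12.3). Col20a1 and Col9a3 stood highest in committed precursor-like cluster 21, at 63.8 and 62.6 CPM, and Col25a1 in OPC-like cluster 33, at 39.1 CPM.

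Genes that work with collagens were compared in the same pairs of classes. The lists that follow hold laminins, nidogens and other basement membrane partners, enzymes of collagen synthesis and processing, cross-linking enzymes, receptors, and proteases of collagen with their inhibitors. Against vascular nuclei, 0 of 13 basement membrane partners compared were called higher in tumor glia and 10 lower. Lama1, a laminin chain of pial and vascular basement membranes, stood at 1.28 against 692 CPM (log2 -9.07), Lamc3 at 0.198 against 51.8 (-8.03), Lama2 at 9.43 against 562 (-5.90) and Nid1, a nidogen that links laminin to type IV collagen, at 6.02 against 222 (-5.20). Lama2 is also 1 of the markers by which fibroblast-like nuclei were named. Against host glia, 5 of 8 partners were higher and 1 lower, with Nid2 (log2 5.01, on 3 UMIs in host glia), Hspg2, which encodes perlecan (3.84), Lamb1 (3.41) and, on the lower side, Lama2 (-4.85) furthest from equality. Here Hspg2, Lama4, Lamb1 and Nid2 passed the minimum of 10 CPM through tumor glia alone and Lama2 through host glia alone, and against vascular nuclei Lama1, Lama2, Lamb2, Lamc3 and Nid1 passed through vascular nuclei alone. The counts of this and the following lists therefore describe the genes compared.

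On the scale of mean UMIs per nucleus, with its shift of 1.5 for every gene, 28 of all pathway genes were higher and 10 lower against vascular nuclei, where CPM gave 6 and 20. That scale called 65.1% of all genes higher and 6.83% lower. By CPM, enzymes that modify collagen chains were mixed against vascular nuclei, with 4 of 24 higher and 4 lower. P3h2, a prolyl 3-hydroxylase that acts on type IV collagen, stood at 98.4 against 7.40 CPM (2 UMIs, log2 3.73), and Adamts14, a procollagen N-proteinase, at 60.7 CPM against 0 UMIs (at least 2.45 on the log2 scale), whereas Tll1 (-2.66), a procollagen C-proteinase, and Serpinh1 (-2.15), the collagen chaperone HSP47, were lower. Against host glia 9 of 20 were higher and 3 lower, with Adamts14 (5.49), P3h2 (4.37), the lysyl hydroxylase Plod2 (3.34) and, lower, Adamts2 (-2.56) furthest. Of these, Adamts3, Adamts14, P3h2, P3h3, Plod2 and Serpinh1 passed the minimum through tumor glia alone and Adamts2 and P3h4 through host glia alone. Against vascular nuclei Adamts14 and P3h2 passed through tumor glia alone, and Adamts2, Crtap and Tll1 through vascular nuclei alone. P3h2, Adamts14 and Bmp1 were higher in tumor glia in all 3 RNA comparisons, with log2 ratios to host OPC-like nuclei of 1.70, 4.33 (1 UMI in host OPC-like nuclei) and 2.19.

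Of the cross-linking enzymes, 0 of 3 were higher and 1 was lower than in vascular nuclei, Loxl2 (log2 -4.49), while both compared with host glia were higher, peroxidasin (Pxdn, 2.87), which cross-links type IV collagen, and Loxl3 (1.90). Of the receptors, 1 of 9 was higher and 3 lower against vascular nuclei. Ddr1, a receptor tyrosine kinase for collagen, stood at 237 against 37.0 CPM (2.68), and Itga1, an integrin chain that binds type IV collagen, at 15.7 against 603 CPM (-5.27), with Mrc2 (-3.76) and Lair1 (-1.34) also lower. Against host glia 5 of 7 receptors were higher and 0 lower, led by Ddr2 (235 against 7.01 CPM, 5.07), Itga1 (3.11), Itga2 (3.06) and Lair1 (1.63). These 4, and Loxl3 above, passed the minimum through tumor glia alone, and the fifth, Itgb1, in both classes. Loxl2 and Mrc2 passed through vascular nuclei alone. Of the degradation list, 1 of 10 was higher and 2 lower against vascular nuclei, with the membrane protease Mmp16 at 374 against 62.9 CPM (2.57), Mmp14 at -1.56 and the inhibitor Timp2 at -1.24. Against host glia 5 of 9 were higher and 1 lower, led by Timp3 (2.95), Mmp14 (2.13), Mmp15 (1.51) and Timp1 (1.48), of which Mmp14 and Mmp15 passed through tumor glia alone.

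With host OPC-like nuclei as the reference, the basement membrane partners counted 2 of 9 higher and 3 lower, the synthesis and processing list 4 of 20 higher and 3 lower, the receptors 4 of 7 higher and 0 lower, the degradation list 2 of 9 higher and 5 lower, and the cross-linking enzymes 0 of 2 higher and 1 lower. Adamts14, Itga2, Lamb1 and Nid2, all higher, passed through tumor glia alone, and Lama1, lower, through host OPC-like nuclei alone. Mmp16, higher than in vascular nuclei and in host glia, was lower here, at 374 against 1583 CPM (523 UMIs, log2 -2.08). Adamts3 (-1.46), P3h3 (-1.26), Lama4 (-1.22), Loxl3 (-1.26) and Mmp15 (-1.52), all higher than in host glia, were lower here as well. The share of all genes called higher or lower in each of these pairs is the one given with the collagens.

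Peaks at the starts of collagen genes were counted from the peak lists, which had been called in each library on its own on mm10. A peak within 1 kb of an annotated start was found for 33 of 44 collagens in Foxr2 p53LOF, 24 in Foxr2 alone replicate 1 and 27 in replicate 2 (75.0%, 54.5% and 61.4%), where 69.6%, 67.8% and 67.2% of all genes had one. In all 3 lists, 22 collagens had such a peak, among them Col4a1, Col4a2, Col11a1 and Col18a1, and 10 had none in any, among them Col3a1. The starts of Col4a1 and Col4a2 lie 21 bases apart on chromosome 8 and shared a single peak, chr8:11312306-11313192. The starts of Col4a5 and Col4a6 lie 1309 bases apart on the X chromosome and had a peak each in Foxr2 p53LOF, chrX:141475100-141475901 and chrX:141473446-141474293. Foxr2 alone replicate 1 had neither, and replicate 2 had 1 peak at the start of Col4a5, chrX:141475043-141475997, whose edge lies 967 bases from the start of Col4a6.

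Col4a5 and Col4a6, a divergent pair, were high in tumor glia and also in fibroblast-like and mural-like nuclei. They are shown beside the vascular chain Col4a1, the fibrillar Col11a1 and the fibroblast gene Col3a1. The 250 bases before the start of these genes are given here from RefSeq (GRCm38.p6, the mm10 build), read 5′ to 3′ in the direction of the gene. They are chrX:141475169-141475418 on the plus strand, chrX:141474077-141474326 on the minus strand, chr8:11312827-11313076 on the minus strand, chr3:114030290-114030539 on the plus strand and chr1:45311288-45311537 on the plus strand. Capitals mark the GC box GGGCGG and the CCAAT box CCAAT, searched on both strands, and these motifs do not overlap each other.
Col4a5: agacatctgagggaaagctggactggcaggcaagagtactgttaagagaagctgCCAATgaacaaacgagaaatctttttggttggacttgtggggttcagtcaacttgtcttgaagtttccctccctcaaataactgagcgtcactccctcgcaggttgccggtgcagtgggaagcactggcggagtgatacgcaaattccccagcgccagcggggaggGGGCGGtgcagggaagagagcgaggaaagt
Col4a6: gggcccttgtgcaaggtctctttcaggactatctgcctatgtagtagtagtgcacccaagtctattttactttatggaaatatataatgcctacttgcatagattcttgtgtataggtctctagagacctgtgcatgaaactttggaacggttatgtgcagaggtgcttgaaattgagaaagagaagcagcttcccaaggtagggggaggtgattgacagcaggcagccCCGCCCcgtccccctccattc
Col4a1: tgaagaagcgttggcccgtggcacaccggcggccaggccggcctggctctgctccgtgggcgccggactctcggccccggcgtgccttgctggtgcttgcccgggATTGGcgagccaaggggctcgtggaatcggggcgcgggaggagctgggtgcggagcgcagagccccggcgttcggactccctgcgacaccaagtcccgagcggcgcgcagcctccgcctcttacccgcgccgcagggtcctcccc
Col11a1: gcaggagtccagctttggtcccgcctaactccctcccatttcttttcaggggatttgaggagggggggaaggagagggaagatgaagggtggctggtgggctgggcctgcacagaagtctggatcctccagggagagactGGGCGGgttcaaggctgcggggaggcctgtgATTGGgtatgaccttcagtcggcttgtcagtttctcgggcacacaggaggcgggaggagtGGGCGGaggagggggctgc
Col3a1: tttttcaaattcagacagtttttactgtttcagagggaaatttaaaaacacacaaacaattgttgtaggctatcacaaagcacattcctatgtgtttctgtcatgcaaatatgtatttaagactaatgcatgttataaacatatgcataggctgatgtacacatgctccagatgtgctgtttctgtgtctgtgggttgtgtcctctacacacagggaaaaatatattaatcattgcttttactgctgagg
The RefSeq window of Col4a5 ends 33 bases past the first of its GENCODE starts, from which the distances to peaks and to Col4a6 were taken, and its GC box begins 4 bases past that start. Within these windows, Col4a5 holds 1 GC box and 1 CCAAT box, Col4a6 1 GC box and no CCAAT box, Col4a1 1 CCAAT box and no GC box, Col11a1 2 GC boxes and 1 CCAAT box, and Col3a1 neither. RefSeq windows were matched for 35 of the 44 collagens, 38 windows in all. A GC box was found in 22 of the 38 (57.9%) and in 32.7% of all 32851 windows of this length, a CCAAT box in 13 (34.2%) and 33.8%, and the letters CCGGAA, the core bound by ETS factors, in 0, where 3952 of 32851 windows held it. The collagen windows had a median GC content of 59%, against 52.4% over all windows. A match is a description of letters and not of a bound site.

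Promoter accessibility, in fragments at a peak per 1000000 in all peaks, followed the RNA of some collagens. At Col4a5, tumor glia had 108 fragments (8.67 per 1000000), host glia 4 (0.915), host OPC-like nuclei 0, neuron-like nuclei 25 (2.62) and vascular nuclei 0. At Col4a6, tumor glia had 76 fragments (6.10 per 1000000), host glia 1 (0.229), host OPC-like nuclei 0, neuron-like nuclei 2 (0.210) and vascular nuclei 1. Both peaks were low in every class, and of those listed tumor glia held the most, with log2 ratios to host glia of 3.24 (1.85 to 5.15) and 4.74 (2.22 to 10.06). Both lay below the minimum of 10 fragments per 1000000 in 1 class and so were not called. In vascular and host OPC-like nuclei the depth allowed no comparison, since 3 fragments there amount to 11.4 and 10.0 per 1000000.

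Against host glia, 17 collagens could be compared at their promoters, and 9 were called higher and 2 lower in tumor glia, where 13.0% of 12370 promoters were called higher and 3.02% lower. All 9 passed the minimum of 10 per 1000000 through tumor glia alone (1.83 to 6.86 in host glia), so the count describes them and supports nothing about the other collagens. Col18a1 stood at 22.6 against 2.75 per 1000000 (log2 3.04, 2.22 to 4.01), Col11a1 at 22.6 against 5.49 (2.04, 1.44 to 2.71) and the peak shared by Col4a1 and Col4a2 at 14.6 against 4.12 (1.83, 1.13 to 2.61), which counts as 2 of the 9. Col5a1, Col6a2, Col7a1, Col12a1 and Col23a1 were the others called higher, with log2 ratios of 1.12 to 2.58, and Col9a2 (-1.20) and Col11a2 (-1.52) were lower. Of the collagens compared in both RNA and promoters, 5 were higher in both and 3 were higher in RNA and not called at the promoter. Col4a1 and Col4a2 are both among the 5 through the same peak. How many of all genes were called alike in RNA and promoter was not counted.

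Against vascular nuclei, 21 collagens were compared at their promoters, and 1 was called higher and 7 lower, where 3.10% of 12726 promoters were called higher and 8.43% lower. The lower ones were Col1a1, Col1a2, Col5a2, Col5a3, Col6a2, Col22a1 and Col23a1, each on 3 to 12 vascular fragments, and the higher one was Col11a2, on 1 vascular fragment. RNA and promoter were both lower for 5 collagens, and 7, among them Col4a1 and Col4a2, were lower in RNA without a call at the promoter. The share of all genes lower in both was not computed. Col1a2, Col5a2 and Col22a1 passed the minimum through vascular nuclei alone, where 3 fragments amount to 11.4 per 1000000. Col11a2, called higher, passed through tumor glia alone. These counts therefore describe the genes compared. The peak shared by Col4a1 and Col4a2 stood at 14.6 per 1000000 in tumor glia and 11.4 in vascular nuclei (3 fragments, log2 0.36, -1.21 to 2.65), beside an RNA ratio of -4.46 for Col4a1. Against host OPC-like nuclei, 0 of 18 were called higher and 4 lower, where 3.33% of 12714 promoters were called higher and 5.62% lower. These were Col27a1 (log2 -1.55), Col9a2 (-1.53), Col11a2 (-1.31) and Col11a1 (-1.05, -1.82 to -0.16), and for the first 3 the RNA was also lower. Divided by counts in promoter peaks, which held 44.7% of fragments in tumor glia and 51.6% in host OPC-like nuclei, Col11a1 stood at -0.84 and was no longer called, beside more of its RNA in tumor glia (log2 1.30).

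Vascular nuclei of both libraries carried Col4a1 and Col4a2 at levels whose intervals overlapped. Col4a1 stood at 470 CPM in the p53LOF library and 426 in Foxr2 alone (35 UMIs), a log2 ratio of 0.14 (-0.41 to 0.73), and Col4a2 at 422 and 280 CPM (0.59, -0.06 to 1.31). Of 29 collagens compared, 7 were called higher and 2 lower in the vascular nuclei of Foxr2 p53LOF, against 5.83% and 8.95% of 12736 genes. The class of Foxr2 alone held 29 nuclei, of which 19 were endothelial-like, 5 mural-like and 5 fibroblast-like, a different makeup from that of Foxr2 p53LOF. The genes called higher were Col3a1, Col4a5 (266 against 36.5 CPM, 3 UMIs, log2 2.87, 1.26 to 5.18), Col4a6 (192 against 73.0 CPM, log2 1.40), Col5a2, Col8a1, Col12a1 and Col23a1, and all 7 had their highest vascular level of Foxr2 p53LOF in fibroblast-like or mural-like nuclei. Col13a1 (log2 -3.72, on 1 UMI in Foxr2 p53LOF) and Col5a3 (-1.72) were lower. Col3a1 passed the minimum through Foxr2 p53LOF only and Col13a1 through Foxr2 alone only. GFP RNA stood at 259 CPM in the vascular nuclei of Foxr2 p53LOF and at 0 UMIs in those of Foxr2 alone, and its part in the higher levels of Col4a5 and Col4a6 was not tested. Genotype and makeup of the class cannot be told apart here.

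**Figure D4:**
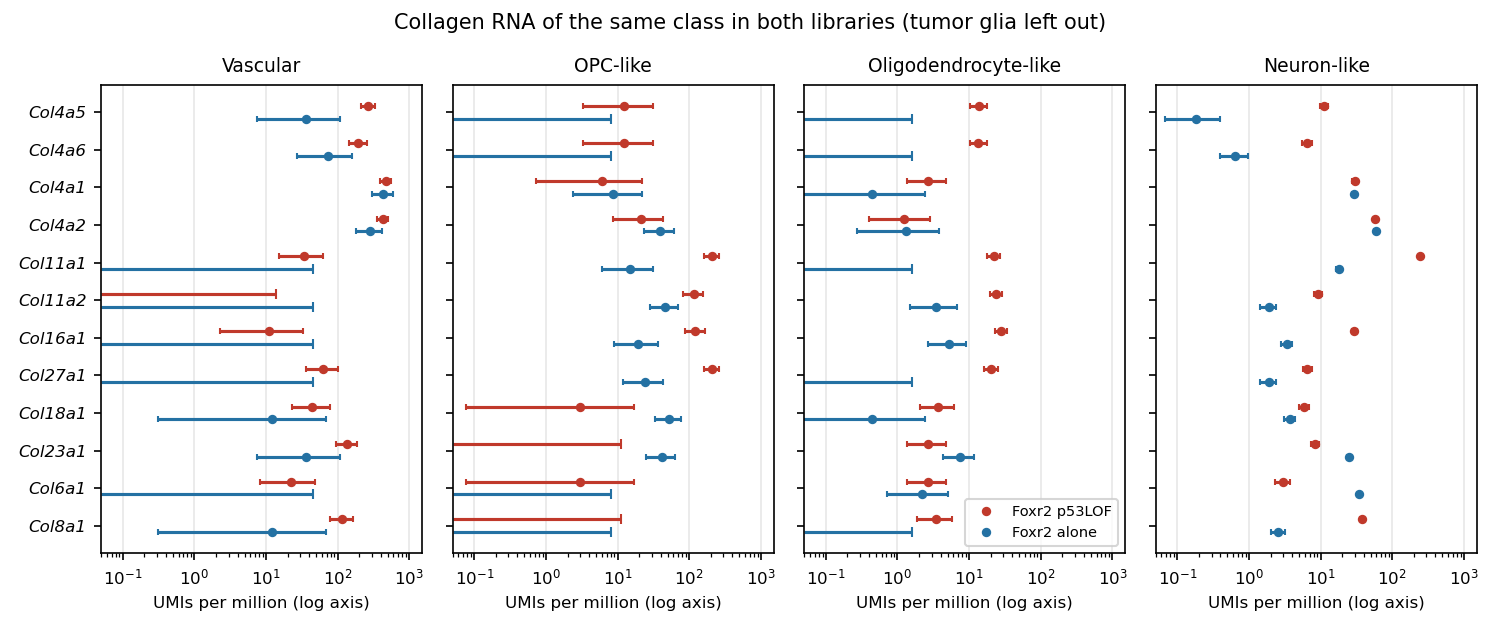
Collagen RNA of the same class in Foxr2 p53LOF and Foxr2 alone, 1 library each, as CPM (log axis) with exact Poisson 95% intervals; a bar with no point that ends in a tick is a class with 0 UMIs and shows the upper limit. Col11a1 is higher in Foxr2 p53LOF in OPC-like (206 against 15.1 CPM) and neuron-like nuclei (242 against 17.8 CPM), and Col4a1 in vascular nuclei is alike in level (470 and 426 CPM).

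In OPC-like nuclei without vector excess, 7 of 20 collagens were called higher in Foxr2 p53LOF than in the OPC-like nuclei of Foxr2 alone and 3 lower, against 6.01% and 12.6% of 10840 genes. Col11a1 stood at 206 CPM against 15.1 (7 UMIs, log2 3.77, 2.65 to 5.13), Col27a1 at 206 and 23.8 CPM (3.11, 2.19 to 4.18), Col16a1 at 121 and 19.4 CPM (2.64) and Col9a1 at 60.5 and 2.16 CPM (1 UMI, 4.81). Col11a2, Col1a2 and Col26a1 were also higher. The lower ones were Col18a1 (3.03 against 51.8 CPM, log2 -4.10, -9.46 to -1.48), Col4a4 (-3.32) and Col23a1, with 0 UMIs against 41.0 CPM. These 3 passed the minimum through Foxr2 alone only, and Col1a2, Col9a1 and Col26a1 through Foxr2 p53LOF only, so the counts describe the genes compared. Col4a5 and Col4a6 had 4 UMIs each in Foxr2 p53LOF and 0 in Foxr2 alone and were not called. GFP RNA stood at 194 CPM in these nuclei of Foxr2 p53LOF and at 99.3 CPM in those of Foxr2 alone, and its part in these differences was not tested. The OPC-like nuclei of Foxr2 alone could not be sorted by vector chromatin, so tumor and host nuclei may both be among them.

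Oligodendrocyte-like nuclei of the libraries fell into different clusters, 5, 9 and 13 in Foxr2 p53LOF and 3, 11 and 22 in Foxr2 alone, so they are set side by side by cluster. Cluster 22 had 2 neuron markers (Nrgn and Slc17a7) and no oligodendrocyte marker among its 10 leading genes. Col11a1 stood at 16.3 to 27.1 CPM, Col27a1 at 17.8 to 21.9, Col4a5 at 11.4 to 15.1 and Col4a6 at 10.8 to 17.1 in clusters 5, 9 and 13, and none of these genes had a UMI in clusters 3, 11 and 22. In cluster 2 of Foxr2 alone, the large unnamed one, Col27a1 had 1 UMI and the other 3 had none. Over the whole class, 6 of 8 collagens were higher in Foxr2 p53LOF and 0 lower, against 13.0% and 22.0% of 9743 genes. All 4 genes without a UMI in Foxr2 alone, and Col16a1 and Col11a2 as well, passed the minimum through Foxr2 p53LOF alone, so the count describes the genes compared. The same 6 were called without cluster 22 and with cluster 2 added, alternatives chosen after seeing the data. The class of Foxr2 alone held 546, 1457 and 2395 nuclei at clustering resolutions of 1, 2 and 3. Col11a1, Col27a1, Col4a5 and Col4a6 stood at 22.1, 20.1, 13.7 and 13.5 CPM in the p53LOF library and were not read in Foxr2 alone (0 UMIs each), at least 16.9, 15.4, 10.5 and 10.4-fold higher at a floor of 3 counts. Col16a1 (log2 2.42) and Col11a2 (2.78) were also higher. GFP RNA, which comes from the vectors, stood at 190 CPM in these nuclei of Foxr2 p53LOF and at 60.8 CPM in those of Foxr2 alone, and its part in these differences was not tested.

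Neuron-like nuclei of Foxr2 p53LOF had 11 collagens at 10 CPM or more, Col11a1 among them. Col25a1, a transmembrane collagen of neurons, stood at 275 CPM with p53LOF and 147 without, and Col19a1, a fibril-associated collagen that neurons also express, at 64.8 and 77.3 CPM. Neither differed by 2-fold between the libraries (log2 0.91 and -0.25), nor did Col4a1 (0.04) or Col4a2 (-0.03). The neurons themselves were of different clusters. Of the 2240 neuron-like nuclei of Foxr2 p53LOF, 1792 were in cluster 0, 251 in cluster 24 (with Sim1 and Slc17a6 among its leading genes) and 173 in cluster 30 (with Slc6a3 and Slc18a2). Of the 4246 in Foxr2 alone, 3 were in cluster 0 and none in 24 or 30, and most were in clusters 1, 7 and 15 to 19, with Drd2, Slc17a7 or Sst among the leading genes of several. Kind of neuron and genotype therefore cannot be told apart in what follows. Cluster by cluster, for those of at least 50 nuclei, Col11a1 stood at 187 to 434 CPM in Foxr2 p53LOF and at 0 to 183 in Foxr2 alone, Col8a1 at 23.7 to 41.3 and 0 to 10.7, and Col4a5 at 7.36 to 14.3 and 0 to 0.985. The ranges of Col25a1 (181 to 1044 and 8.70 to 472 CPM), Col6a1 (0.494 to 3.15 and 0 to 60.1) and Col23a1 (3.95 to 26.1 and 4.54 to 83.8) overlapped. All are ranges of point values without counting intervals. How many of all genes have ranges that lie apart between the libraries was not counted. Over the whole class, of 13 collagens compared 6 were called higher in Foxr2 p53LOF and 2 lower, against 13.3% and 19.0% of 10599 genes, and the same 8 without cluster 30, which had 1 fibroblast marker and no neuron marker among its leading genes. Col11a1 (242 against 17.8 CPM, log2 3.76, 3.64 to 3.89), Col8a1 (38.1 against 2.57 CPM, 3.89), Col16a1 (3.14), Col26a1 (1.45), Col24a1 (1.30) and Col4a5 (11.1 against 0.181 CPM, 5.93) were higher, and Col6a1 (2.96 against 34.7 CPM, -3.55) and Col23a1 (8.35 against 25.0 CPM, -1.58) lower. Of these 8, Col11a1 alone reached 10 CPM in both libraries, so the counts describe the genes compared. GFP RNA stood at 76.1 CPM in these nuclei of Foxr2 p53LOF and at 19.2 CPM in those of Foxr2 alone, and its part in these differences was not tested.

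The remaining collagens stood below 10 CPM in tumor glia, and some of their highest levels in other classes rested on a few nuclei. Col14a1, a fibril-associated collagen, reached 27.0 CPM in immune-like nuclei and 53.5 CPM in mural-like nuclei (1 UMI) of Foxr2 p53LOF and 1.19 CPM in tumor glia. Col6a3 reached 12.2 CPM in the Foxr2 alone library, in oligodendrocyte-like nuclei, and 2.32 CPM in tumor glia. Col13a1 (436 CPM) had its highest level in the 5 fibroblast-like nuclei of Foxr2 alone and stood at 3.06 CPM in tumor glia. Col8a2 reached 10.8 CPM in fibroblast-like nuclei, on 1 UMI, and 0.247 CPM in tumor glia. Col22a1 reached 32.3 CPM in fibroblast-like nuclei and 5.14 CPM in tumor glia.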

How the data were processed

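The authors aligned the reads with Cell Ranger ARC 2.0.0 to mm10 plus vector sequences and deposited counts per barcode, of UMIs for genes and of transposition events for peaks, together with the peak list of each library. The deposited counts carry no further normalization. Nuclei were kept with at least 400 genes, at least 400 fragments in peaks (peak counts divided by 2), at most 5% mitochondrial UMIs and the upper limits of the study's methods. Scrublet doublets (4.05% and 6.10%) were removed, and both libraries were clustered together in scanpy 1.11.5 with leidenalg 0.10.2 (2000 variable genes, 30 components, resolution 2, seed 100), without collagens, pathway genes and vector features. Clusters were named from marker lists, and the vascular clusters were split again into endothelial-like, mural-like and fibroblast-like nuclei, a step chosen after seeing the data. UMIs and fragments were summed per class and library, scaled to CPM and given exact Poisson 95% intervals. Ratios carry exact conditional binomial intervals, a class at 0 being set to a floor of 3 counts. PCR duplicates are collapsed by UMIs, and intervals and floors cover counting error only. A gene was called at 10 per 1000000 in 1 class, a 2-fold difference and an interval that leaves out equality. The rule was tried on simulated counts with counting error only, which cannot show how it fares under variation between nuclei or animals. Every collagen called in a comparison with vascular nuclei or host glia, every collagen at 10 CPM in any class and up to 4 called genes of each pathway list were named. The members, markers and lists were chosen with earlier results of these data known. Promoter peaks lie within 1 kb of a GENCODE start. The closing section gives the alternatives tried, which were filters, doublets, resolution, scaling, minimum level, promoter window and class membership.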

Additional observations from a re-analysis of the deposited data

How the results depend on the processing

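Counts of 1 library per genotype were analysed, so no replicate could be left out. No paired analysis was run, because the counts analysed were of 1 library of each genotype, which share only the replicate number 1. Of the counts recomputed under the alternatives, 83 stayed within 1.5 times the value in the report and 19 did not. Of the log2 ratios of single collagens, 1634 kept their sign and their call or lack of a call. Of the others, 31 lost a call and 75 gained a call. A change of sign was seen in 78 ratios not called in the report and in 2 that were called. Mean UMIs per nucleus in place of CPM add 1.5, 1.88 and 1.53 to every log2 ratio against vascular nuclei, host glia and host OPC-like nuclei. With them, 9 collagens were higher and 11 lower against vascular nuclei, and of the pathway genes 28 were higher and 10 lower against vascular nuclei (6 and 20 by CPM), 41 higher and 1 lower against host glia (26 and 5 by CPM) and 30 higher and 1 lower against host OPC-like nuclei (12 and 12 by CPM), and 12 collagens were higher against host OPC-like nuclei (6 by CPM). The same scaling called 65.1% of all genes higher and 6.83% lower against vascular nuclei. Against host glia it called 88.1% and 2.63%, and against host OPC-like nuclei 77.2% and 4.23%. The counts under this scaling are therefore not read as a trait of the pathway genes. Without the minimum of 10 CPM, 21 collagens were higher and 2 lower against host glia (12 and 0 with it), 14 were called between the oligodendrocyte-like nuclei of both libraries (6 with it) and 30 between the neuron-like nuclei (8 with it). Among the alternatives, shares over all genes were computed only for mean UMIs per nucleus and for endothelial-like nuclei alone. The counts under the other alternatives therefore have no such share beside them. A single collagen was lower against host glia, in place of 0, at resolution 1 and when tumor glia were limited to nuclei with a vector ATAC count, each giving 1. Against endothelial-like nuclei only, a choice made after seeing the data, 10 collagens were lower. With promoter peaks within 250 bases, 0 promoters were higher against vascular nuclei and 1 lower against host glia, and divided by counts in promoter peaks 3 were higher against vascular nuclei. Col27a1 turned against vascular nuclei, with log2 ratios of 0.26 with doublets kept and, by the shift of 1.5, 0.42 for mean UMIs per nucleus, where Col22a1 (0.39) turned too. The cause of the other changes was not tested, except that the minimum of 10 CPM limits how many genes are compared. At a minimum of 1000 genes and fragments, Foxr2 alone kept 1 oligodendrocyte-like nucleus, so that comparison has no value there, and Scrublet marked 0.237% of its nuclei, too few to have worked. On depth, in Foxr2 p53LOF, 3 UMIs amount to 161 CPM in mural-like, 32.3 in fibroblast-like, 18.9 in endothelial-like and 9.08 in host OPC-like nuclei, and in Foxr2 alone to 36.5 CPM in all vascular nuclei.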

Other observations

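Col4a5 and Col4a6, both high in tumor glia of Foxr2 p53LOF, were read apart in the 401 astrocyte-like nuclei of Foxr2 alone. Col4a5 had 54 UMIs there (41.6 CPM, exact Poisson 95% interval 31.3 to 54.3) and Col4a6 had 1 UMI (0.771 CPM, 0.0195 to 4.29). Col4a3 and Col4a4, the chains that join Col4a5 in the network of the kidney filter, had 30 and 55 UMIs in the same nuclei (23.1 and 42.4 CPM), against 0.434 and 4.34 CPM in the oligodendrocyte-like nuclei of that library. Col4a5 was found in 5.25% of these nuclei after thinning to 1000 UMIs (12.2% before), with 0 of 281 thinned immune-like nuclei as background. All 10 astrocyte markers were raised in their cluster, although its 10 leading genes held none of them and 1 mural marker, Pdgfrb. The vector share of these nuclei could not be measured, for want of a vector peak in that library.

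The 132 astrocyte-like nuclei of Foxr2 p53LOF with an intermediate vector share held GFP RNA at 806 CPM and Foxr2 RNA at 115 CPM (608 and 76.2 in tumor glia), Col4a5 at 210 CPM and Col4a6 at 212 CPM, between host OPC-like nuclei and tumor glia. A UMI of Col4a5 was found in 33.3% of them and a UMI of Col4a6 in 16.7%, before thinning. They also held 62.3 CPM of Col5a2, against 7.85 CPM in all tumor glia. The 317 unnamed nuclei, of which 19.9% had a vector ATAC count, held 96.3 CPM of Col4a5 and 120 CPM of Col4a6.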
